A study of Homo sapiens with 3 samples.

Results

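The 10 genes described here encode lysosomal cathepsins, the proteases that break down protein inside the lysosome: CTSA, CTSB, CTSC, CTSD, CTSH, CTSK, CTSL, CTSS, CTSV and CTSZ. They were picked by gene symbol from the 58735 genes of the deposited tables, and all 10 reached a CPM (counts scaled to a common library size) of 1 in at least 1 library, the minimum for being compared. The study sequenced RNA from 1 library of each of 3 established prostate cancer lines. LNCAP was derived from a lymph node metastasis and stands for androgen-dependent prostate cancer, whose growth needs androgen receptor signalling. PC3, from a bone metastasis, and DU145, from a brain metastasis, stand for castration-resistant prostate cancer, which grows without it. Each class is therefore represented by 1 or 2 lines, no treatment or genetic change was applied, and all 3 lines were grown in medium with 10% serum.

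Cathepsins are made as inactive precursors, carried to the lysosome largely by mannose 6-phosphate receptors, and activated there by acid, so their output depends on sorting receptors, the proton pump and endogenous inhibitors as well as on their own mRNA. They fall into 3 catalytic types. CTSA is a serine carboxypeptidase that also holds the sialidase NEU1 and the galactosidase GLB1 in a stable complex. CTSD is an aspartic endopeptidase. The other 8 are papain-like cysteine proteases: CTSB, CTSL, CTSV, CTSK and CTSS cut within proteins, whereas CTSC, CTSH and CTSZ mainly trim their ends. In tumours, secreted cathepsins are known for degrading the matrix around the cells.

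Before any values, 4 short stretches upstream of the annotated transcript start are shown, because they hold what certain of these genes share in sequence. RefSeq promoter windows on GRCh38.p14 were matched for 7 of the 10 genes (not CTSB, CTSK or CTSS), and the 250 bases before the start were read in each. Part of these windows lies within annotated exons of longer transcripts, so short stretches are printed for CTSL, CTSV, CTSA and CTSD. Capitals mark, in the first pair, the longest run common to both windows, and in the second pair the hexamer CACGTG, the E-box core within the element bound by the lysosomal regulators TFEB and TFE3. Each sequence is written 5′ to 3′ on the strand of its gene.
CTSL, chr9:87726020-87726049, plus strand: gctGCCGGCACAGCCAATCGCAGCGCagcc
CTSV, chr9:97039202-97039231, minus strand: gtgGCCGGCACAGCCAATCGCAGCGCggga
CTSA, chr20:45891290-45891319, plus strand: tgtCACGTGgcgccggagttCACGTGactc
CTSD, chr11:1763957-1763986, minus strand: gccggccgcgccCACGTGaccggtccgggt

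CTSL and CTSV form the cathepsin L branch of the family and both lie on chromosome 9. The run common to their windows was 23 bases long and began 96 bases before the start of CTSL and 86 bases before that of CTSV. Among the 21 pairs of windows the next longest run was 13 bases, for CTSD and CTSH, and the shortest was 7. The coding sequences of CTSL and CTSV, 999 and 1002 bases, were 83.4% identical with a longest common run of 40 bases. The next most alike pair, CTSK and CTSS, had 64.1% identity, and any 50 bases of the coding sequence differ between CTSL and CTSV.

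CACGTG occurred in the windows of CTSA, at 42 and 25 bases before the start, and CTSD, at 47 bases, and in 6.34% of all 35116 RefSeq windows of that length. The longer form TCACGTGA, which overlaps it, was found in CTSA and in 0.854% of all windows, and the full palindromic CLEAR element in none of the 7 and in 0.308% of all. All 7 windows held the GC box GGGCGG, against 42.6% of all windows. The AP-1 motif TGANTCA, found in 6.57% of all windows, and the motif of interferon regulatory factors (IRF), found in 3.02%, had no match in the 7. Every motif was searched on both strands, and a match describes letters, not a bound site. CCAAT, added after the windows were read, lay inside the run common to CTSL and CTSV and also in CTSC, and in 32.0% of all windows.

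CTSC and CTSH are shown at greater length because both were called against LNCAP in PC3 and in DU145, CTSC higher and CTSH lower. CTSA, called higher in both, is shown above. The stretches end 52 and 49 bases before the annotated start, where they meet annotated exons, and capitals mark GGGCGG or its reverse complement. Both lie outside every annotated exon. The CTSC stretch lies upstream of the annotated gene, whereas the CTSH stretch lies inside its gene, which reaches base 78949574 through longer transcripts. The CTSC stretch had 56.3% G and C and 1 such box, and the CTSH stretch had 72.3% and 5. The full windows of CTSD, with 79.2% G and C, and CTSZ, with 81.2%, also held 5 such boxes. Neither of these genes was called in any pair, and a link between boxes and levels was not tested.
CTSC, chr11:88337788-88337986, minus strand: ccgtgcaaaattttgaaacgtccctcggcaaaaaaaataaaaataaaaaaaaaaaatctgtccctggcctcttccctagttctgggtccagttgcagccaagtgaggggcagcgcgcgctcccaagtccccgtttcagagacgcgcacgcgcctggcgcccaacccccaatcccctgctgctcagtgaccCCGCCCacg
CTSH, chr15:78945095-78945296, minus strand: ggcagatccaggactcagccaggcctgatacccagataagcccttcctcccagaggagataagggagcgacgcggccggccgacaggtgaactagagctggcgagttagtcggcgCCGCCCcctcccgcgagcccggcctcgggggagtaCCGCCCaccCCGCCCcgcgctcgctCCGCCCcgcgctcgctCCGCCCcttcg

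The libraries were of near-equal depth, from 15319045 to 15878546 counts, and mitochondrial genes took between 4.35% and 7.97% of them. Line markers matched the labels: KLK3, the androgen-driven prostate-specific antigen, was detected with 35507 counts in LNCAP and with 0 in either other line, and CTNNA1, known to be lost in PC3, had 33 counts there against 5664 in LNCAP and 7934 in DU145. With 1 library per line there is no spread between replicates. Each fold below is a ratio of scaled counts with its 95% counting interval, which covers counting error only and compares libraries rather than lines or classes. A gene was called when it was at least 4-fold apart and the interval left out a ratio of 1. Levels of 1 gene across lines are given in normalised CPM, and levels of different genes in FPKM, which divides by gene length. Bulk RNA does not tell more RNA per cell from more cells that express the gene.

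Against LNCAP, PC3 had 2 of the 10 cathepsin genes called higher, CTSA and CTSC, and 2 called lower, CTSH and CTSS. Over all 18025 genes compared, 26.4% were called in that pair, 13.0% higher and 13.4% lower. Nothing particular to the cathepsin genes is read from 4 calls among 10 against that share. DU145 had the same 2 genes called higher than in LNCAP and only CTSH called lower, where 25.8% of all genes were called, 13.7% higher and 12.1% lower. Between the castration-resistant lines, no cathepsin gene was called higher in PC3 and 3 were called lower, CTSL, CTSK and CTSS, against 8.54% of all genes higher and 10.6% lower. The median log2 ratio of the 10 genes was -0.50 for PC3 over LNCAP, 0.99 for DU145 over LNCAP and -0.87 for PC3 over DU145, where the median of all genes compared lay between -0.01 and 0. Both comparisons with LNCAP use the same LNCAP library.

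**Figure D1:**
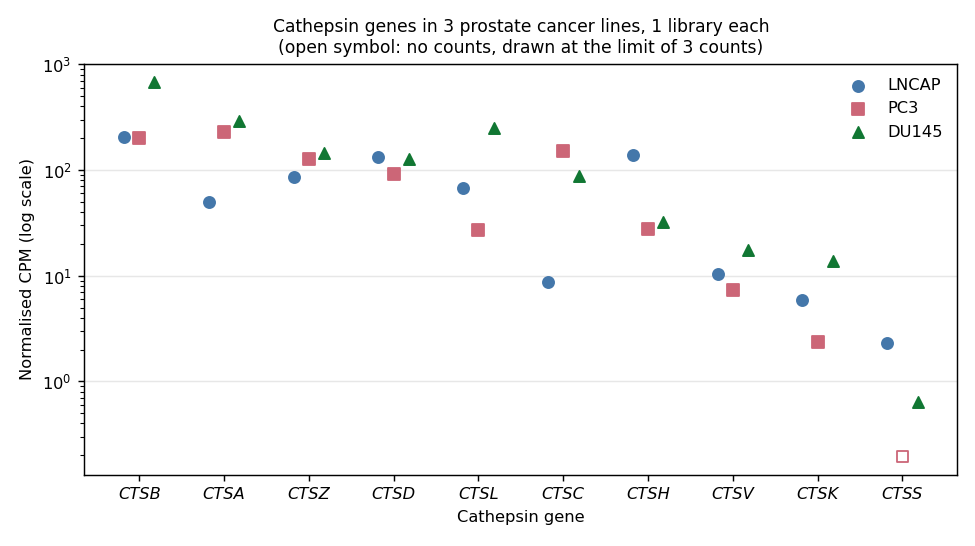
Normalised CPM on a log axis for each cathepsin gene in the LNCAP, PC3 and DU145 libraries, 1 point per library; the open square is CTSS in PC3, with no counts, drawn at the limit of 3 counts. CTSA, CTSC and CTSZ sit lowest in LNCAP, and CTSH and CTSS highest in LNCAP. CTSA, CTSB, CTSK, CTSL, CTSV and CTSZ sit highest in DU145, and CTSD is alike in LNCAP and DU145.

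CTSA (ENSG00000064601, chr20:45890144-45898820, plus strand), the serine carboxypeptidase, stood at 49.5 normalised CPM in LNCAP, 228 in PC3 and 290 in DU145, from 774, 3487 and 4551 counts. Both castration-resistant lines were high and LNCAP low. The level was 4.61-fold higher in PC3 than in LNCAP (interval 4.26 to 4.99) and 5.87-fold higher in DU145 (5.43 to 6.34), and DU145 exceeded PC3 by 1.27-fold (1.22 to 1.33). The 3 prime end of CTSA overlaps PLTP, a phospholipid transfer protein gene on the opposite strand, by 200 bases, and 24.0% of the 50-base words of its principal transcript occur, on either strand, in NEURL2, PLTP or an antisense transcript. The strand setting of the counting is not given in the sources used here. PLTP had 2 counts in LNCAP, 1143 counts in PC3 and 21 counts in DU145, and NEURL2 6, 8 and 25. The part of reads from these neighbours in the CTSA values was not tested.

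CTSD (ENSG00000117984, chr11:1752752-1764573, minus strand), the aspartic cathepsin and a usual marker of lysosomal content, was among the flattest of the 10. Its level was 132 normalised CPM in LNCAP, 91.9 in PC3 and 128 in DU145. LNCAP and DU145 could not be told apart (1.03-fold, interval 0.964 to 1.09), and PC3 was 1.43-fold lower than LNCAP (1.34 to 1.54). Of the 50-base words of its principal transcript, 60.6% are also found in the read-through gene AC068580.4 or in an antisense transcript. AC068580.4 received 4, 9 and 7 counts in LNCAP, PC3 and DU145, against 2059, 1404 and 2012 for CTSD, and how reads in common were assigned is not known.

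Among the cysteine cathepsins that trim protein ends, CTSC and CTSH differed from LNCAP in opposite directions. CTSC (ENSG00000109861, chr11:88293592-88337787, minus strand), dipeptidyl peptidase I, activates the serine proteases stored in granules of leukocytes. It stood at 8.76 normalised CPM in LNCAP, 152 in PC3 and 88.0 in DU145. PC3 was 17.4-fold above LNCAP (14.6 to 20.8) and DU145 10.0-fold above it (8.42 to 12.1), and PC3 exceeded DU145 by 1.73-fold (1.62 to 1.85). None of the 50-base words of its principal transcript occur in another gene.

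CTSH (ENSG00000103811, chr15:78921058-78949574, minus strand), an aminopeptidase also needed for surfactant protein processing in lung, ran the other way. Its level was 139 normalised CPM in LNCAP, 27.8 in PC3 and 32.0 in DU145, so the castration-resistant lines were both low and close to each other. PC3 was 5.00-fold lower than LNCAP (4.51 to 5.56) and DU145 4.34-fold lower (3.94 to 4.79). The lower bound for DU145 lies just under 4-fold. CTSZ (ENSG00000101160, chr20:58995185-59007247, minus strand), a carboxypeptidase that also binds integrins, was abundant and less variable, at 85.3 normalised CPM in LNCAP, 127 in PC3 and 146 in DU145. It was 1.48-fold higher in PC3 (1.38 to 1.59) and 1.72-fold higher in DU145 (1.60 to 1.84) than in LNCAP, neither of which reached 4-fold.

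Of the endopeptidases, CTSB and the genes of the cathepsin L branch were highest in DU145. CTSB (ENSG00000164733, chr8:11842524-11869448, minus strand), the most widely expressed of the family, had 205 normalised CPM in LNCAP, 199 in PC3 and 675 in DU145. LNCAP and PC3 did not differ beyond counting error (1.03-fold, 0.980 to 1.08), and DU145 was 3.29-fold above LNCAP (3.16 to 3.42) and 3.39-fold above PC3 (3.26 to 3.53). CTSL (ENSG00000135047, chr9:87725519-87731393, plus strand), a strong endopeptidase of most cells, had 67.9 normalised CPM in LNCAP, 27.3 in PC3 and 252 in DU145. PC3 was 2.49-fold lower than LNCAP (2.22 to 2.80) and DU145 3.71-fold higher (3.47 to 3.98), and PC3 was 9.24-fold lower than DU145 (8.35 to 10.2). CTSL thus took an intermediate level in the androgen-dependent line, with the castration-resistant lines on either side of it.

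CTSV (ENSG00000136943, chr9:97029679-97039643, minus strand), the closest relative of CTSL and known from thymus and testis, followed the same order at a lower level, with 10.3 normalised CPM in LNCAP, 7.39 in PC3 and 17.7 in DU145. It was 1.39-fold lower in PC3 (1.09 to 1.79) and 1.72-fold higher in DU145 (1.41 to 2.098) than in LNCAP. CTSK (ENSG00000143387, chr1:150796208-150808323, minus strand), the collagenase of bone-resorbing osteoclasts, also kept that order, at 5.88, 2.36 and 13.7 normalised CPM in LNCAP, PC3 and DU145, from 92, 36 and 214 counts. Its level in PC3 was 2.50-fold lower than in LNCAP (1.68 to 3.78) and 5.80-fold lower than in DU145 (4.06 to 8.50), and DU145 was 2.32-fold above LNCAP (1.81 to 2.996). The line from a bone metastasis, PC3, therefore had the lowest CTSK level of the 3 libraries.

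CTSS (ENSG00000163131, chr1:150730196-150765957, minus strand), the cathepsin of antigen-presenting cells that cuts the invariant chain, was the lowest of the 10 in each library. It had 36 counts in LNCAP, 0 counts in PC3 and 10 counts in DU145, or 2.30, 0 and 0.638 normalised CPM. A count of 0 allows up to 0.196 CPM in PC3, so PC3 was at least 11.7-fold lower than LNCAP and at least 3.25-fold lower than DU145. The second bound lies under 4-fold, and the call rests on the 0.5 counts added before the logarithm. DU145 was 3.61-fold below LNCAP (1.75 to 8.15), which was not called.

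**Figure D2:**
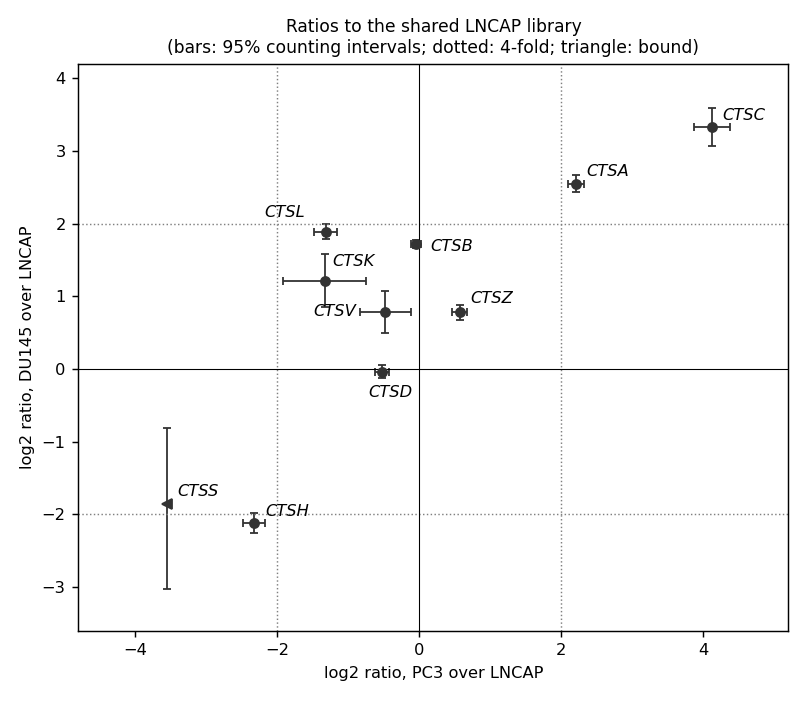
Log2 ratio of DU145 over LNCAP against that of PC3 over LNCAP for the 10 cathepsin genes, with bars for the 95% counting intervals, dotted lines at 4-fold and a triangle where the PC3 value of CTSS is a bound. Both axes use the same LNCAP library. CTSA and CTSC lie past 4-fold higher and CTSH past 4-fold lower on both axes, and CTSL, CTSK and CTSV lie left of and above zero.

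As a class, the castration-resistant libraries were set against LNCAP in 1 model, in which the difference between PC3 and DU145 served as the spread, with 1 residual degree of freedom. No gene passed in edgeR's quasi-likelihood test at an adjusted p under 0.05, 0 of 18025, whereas 9.69% had an unadjusted p under 0.05. The 3 cathepsin genes with an unadjusted p that low were CTSC (log2 fold change 3.78, adjusted p = 0.341), CTSH (-2.22, adjusted p = 0.380) and CTSA (2.39, adjusted p = 0.408). DESeq2, run as an alternative, called 7.20% of the genes (14.1% at an unadjusted p under 0.05) and these same 3 cathepsins, with adjusted p = 0.000103 for CTSC, 0.00847 for CTSA and 0.0311 for CTSH. Limma-voom called 0 genes, with 7.40% at an unadjusted p under 0.05. The calls thus differed by tool, while over the edgeR, DESeq2 and limma-voom fits the log2 fold change stayed between 3.72 and 3.78 for CTSC and was 2.38 or 2.39 for CTSA and -2.22 for CTSH. CTSL had a class log2 fold change of 1.04, but -1.32 when the DU145 library was left out. The values of CTSK and CTSV turned from positive to negative in the same way. That of CTSB went from 1.09 to -0.04, which is no difference beyond counting error.

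Per unit of length, the summed FPKM of the 10 genes was 176 in LNCAP, 188 in PC3 and 384 in DU145, and their share of all counts 0.0717%, 0.0861% and 0.162%. The summed FPKM was thus alike in LNCAP and PC3 and higher in DU145, with a different makeup in each. Without division by length, the 10 genes summed to 706, 863 and 1644 normalised CPM in LNCAP, PC3 and DU145. The likeness of LNCAP and PC3 therefore holds for the listed lengths only. In LNCAP the highest genes were CTSD at 41.4 FPKM and CTSZ at 41.1, which overlapped within counting error, followed by CTSL at 28.2 and CTSB at 27.1, which also overlapped. In PC3 CTSZ led at 61.7 FPKM, followed by CTSA at 38.7 and CTSD at 29.2, and in DU145 CTSL led at 106 FPKM, followed by CTSB at 90.7 and CTSZ at 71.8. The 3 highest genes held 63.0%, 68.8% and 70.1% of the summed FPKM in LNCAP, PC3 and DU145. At the low end, CTSK and CTSV overlapped in LNCAP and in PC3, and CTSC and CTSS overlapped in LNCAP.

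These orders between genes and the FPKM sums rest on the listed gene length. That length is the union of all annotated exons, 5.95 times the principal transcript for CTSC, 2.72 times for CTSA and 2.69 times for CTSH. Rescaled to the principal transcript, an alternative added after the files were seen, CTSH led in LNCAP at 62.3, just above CTSD at 60.9. CTSA led in PC3 at 105, with CTSZ next at 84.1 and then CTSC at 78.7, and CTSB led in DU145 at 174, ahead of CTSA at 135 and CTSL at 116. The comparison of 1 gene between lines is the same on either length.

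**Figure D3:**
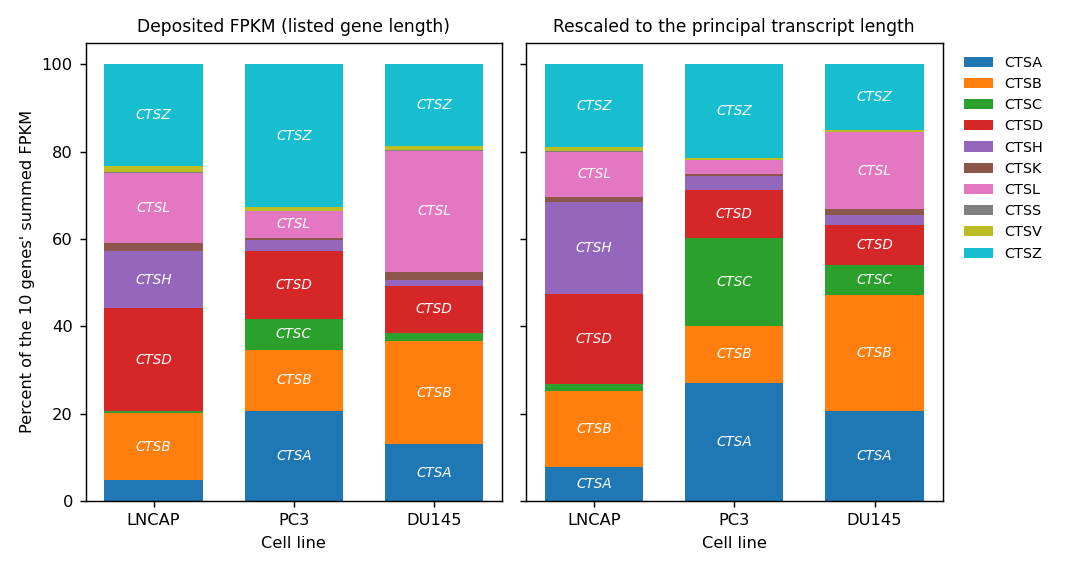
Share of each cathepsin gene in the summed FPKM of the 10 genes, in percent, per library, with the deposited FPKM on the left and FPKM rescaled to the principal transcript length on the right. CTSL takes its largest share in DU145 and CTSH its largest share in LNCAP on either scale.

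The genes around the cathepsins were grouped into lists of lysosomal function. Over all genes compared, 13.0% were called higher and 13.4% lower in PC3 than in LNCAP. In DU145 these shares were 13.7% and 12.1%. The counts of calls given below for each list were not tested against these shares. Of 6 further cathepsins and related proteases compared, PC3 had 2 called higher and 3 lower than LNCAP, and DU145 2 higher and 2 lower. LGMN, the asparaginyl endopeptidase that processes several cathepsins, was the highest of them per length in every library and was 5.61-fold lower in PC3 than in LNCAP (5.04 to 6.25), at 26.5 against 149 normalised CPM. CTSE, an aspartic protease, had 63 counts in LNCAP, 0 counts in PC3 and 4 counts in DU145, and NAPSA, its relative known from lung and kidney, 2, 23 and 345. CTSW, a cathepsin of cytotoxic lymphocytes, had 0, 21 and 9.

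Among the inhibitors, 8 of 17 were compared, with 1 called higher and 1 lower in PC3 than in LNCAP and 2 higher and 3 lower in DU145. CSTA had 6, 1 and 0 counts in LNCAP, PC3 and DU145, and A2M 0, 2 and 2, too few to be compared. The cystatin genes CST3 and CSTB were present throughout, and none of their differences reached 4-fold. CST3, the secreted cystatin C, was at 109, 163 and 90.2 normalised CPM in LNCAP, PC3 and DU145, and CSTB, the cytosolic cystatin B, at 99.1, 185 and 164. SERPINB1, an intracellular serpin that inhibits neutrophil serine proteases, had 4 counts in LNCAP, 466 counts in PC3 and 863 counts in DU145, and was 119-fold higher in PC3 (46.2 to 439) and 215-fold higher in DU145 (83.8 to 792). CST6, cystatin M, was close to absent in LNCAP and PC3, with 1 and 3 counts, and had 151 in DU145. KNG1, the kininogen gene, had 43 counts in LNCAP and 0 in both other lines.

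The genes whose proteins depend on CTSA did not follow it past the threshold. NEU1 was at 81.2, 57.5 and 69.8 normalised CPM in LNCAP, PC3 and DU145, GLB1 at 53.0, 42.3 and 59.8, and GALNS at 20.7, 22.8 and 35.9, and 0 of the 3 were called in any pair. NEU1 was 1.41-fold lower in PC3 than in LNCAP (1.29 to 1.54), in the direction opposite to CTSA.

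Of 12 genes for sorting to the lysosome, 2 were called higher in PC3 than in LNCAP and 1 in DU145, and none lower. LRP1, an endocytic receptor that can take up cathepsin precursors, was 8.63-fold higher in PC3 (7.90 to 9.45) and 8.13-fold higher in DU145 (7.44 to 8.90). SORL1, a sorting receptor, was 7.26-fold higher in PC3 (6.52 to 8.11). The mannose 6-phosphate receptors were not called. IGF2R, the larger of these, was 2.01-fold lower in PC3 (1.95 to 2.08) and 2.12-fold lower in DU145 (2.05 to 2.20), and M6PR was at 44.9, 49.2 and 73.2 normalised CPM in LNCAP, PC3 and DU145. Per length, IGF2R was the highest of the list in LNCAP at 37.5 FPKM, the adaptor gene GGA3 in PC3 at 19.6 and M6PR in DU145 at 19.4. IGF2R came close to them, at 18.8 in PC3 and 17.9 in DU145. These orders rest on the listed gene lengths and were not tested.

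Of 10 lysosomal membrane and luminal transport genes, LAPTM4B, a membrane protein often gained in tumours, was called higher in both lines, by 7.80-fold in PC3 (7.11 to 8.58) and 8.01-fold in DU145 (7.30 to 8.81). In DU145 NPC2, the luminal cholesterol carrier, was 5.19-fold higher (4.70 to 5.73) and TMEM192 5.68-fold lower (4.86 to 6.67) than in LNCAP. CD63 was the highest of the list per length in PC3 and DU145, at 100 and 95.6 FPKM, and LAPTM4A in LNCAP at 68.2.

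Of 25 further lysosomal hydrolases, none was called higher than LNCAP in either line, and 2 were called lower in PC3 and 1 in DU145. HEXA, the alpha chain of hexosaminidase, had 321 counts in LNCAP, 0 counts in PC3 and 649 counts in DU145, which makes PC3 at least 105-fold lower than LNCAP. ASAH1, acid ceramidase, was 6.16-fold lower in PC3 (5.71 to 6.64), and SMPD1, acid sphingomyelinase, 9.10-fold lower in DU145 (7.59 to 10.98). PSAP, which encodes the saposins, had the highest level per length, at 307, 229 and 441 FPKM in LNCAP, PC3 and DU145. The list had a median log2 ratio of -0.38 for PC3 over LNCAP and -0.01 for DU145 over LNCAP.

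The vacuolar ATPase, the proton pump that acidifies lysosomes, had 19 of 21 subunit genes compared, with 0 called higher and 3 lower in PC3 than in LNCAP. ATP6V0A1, a subunit of the membrane sector, had 1327 counts in LNCAP, 3 counts in PC3 and 1329 counts in DU145, a difference of 432-fold between LNCAP and PC3 (148 to 2100). ATP6V1H was 4.84-fold lower in PC3 (4.203 to 5.60) and ATP6V0E2 4.31-fold lower (3.98 to 4.68). In DU145, ATP6V0B was 4.74-fold lower than in LNCAP (4.39 to 5.12), and ATP6V1B1 was called higher on 16 counts against 0, at least 5.32-fold. ATP6V1F, a subunit of the catalytic sector, was the highest of the list per length, at 132 FPKM in LNCAP, 79.7 in PC3 and 70.5 in DU145. The median log2 ratio of the subunits was -0.74 for PC3 over LNCAP and -0.38 for DU145 over LNCAP.

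Among 7 transcription factors tied to lysosomal genes, MITF and TFEB, which are close relatives, differed in opposite directions. MITF was at 9.85 normalised CPM in LNCAP, 42.0 in PC3 and 67.5 in DU145, or 4.26-fold higher in PC3 (3.57 to 5.12) and 6.85-fold higher in DU145 (5.78 to 8.17). TFEB was at 23.5, 2.94 and 6.70 normalised CPM, 7.996-fold lower in PC3 than in LNCAP (5.86 to 11.2) and 3.51-fold lower in DU145 (2.82 to 4.41), the second not called. TFE3 was at 85.7, 120 and 118 normalised CPM and was not called, and TFEC had 1, 71 and 1 counts. Per length, the highest of the list was USF1 in LNCAP at 21.2 FPKM, MAX in PC3 at 28.8 and TFE3 in DU145 at 27.6. USF2 came close in LNCAP at 20.5 and TFE3 in PC3 at 27.9. These orders rest on the listed gene lengths and were not tested.

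**Figure D4:**
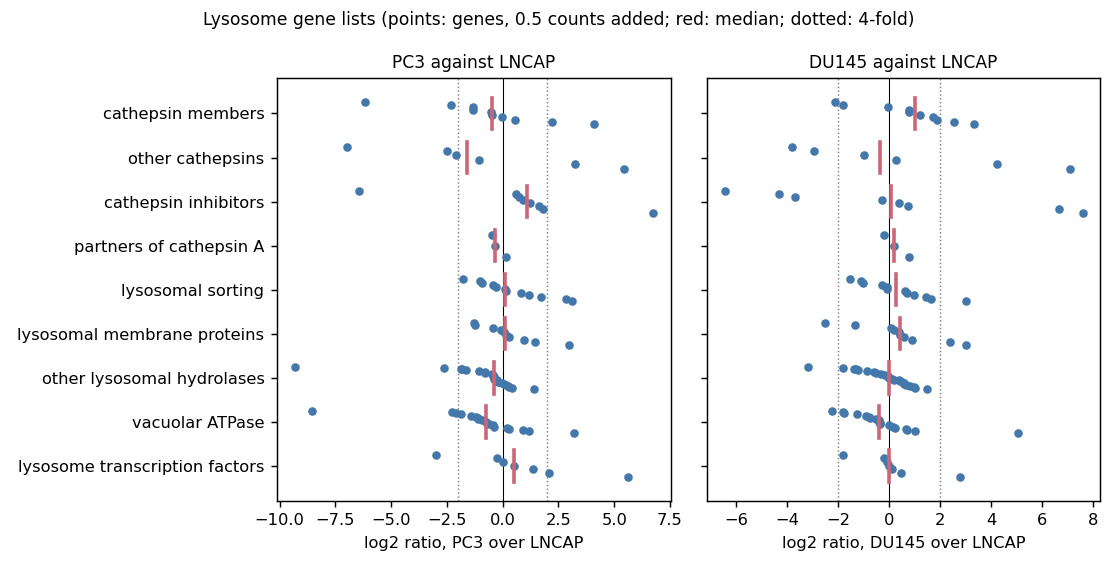
Log2 ratio of PC3 over LNCAP on the left and of DU145 over LNCAP on the right, with 0.5 counts added, for the cathepsin genes and 8 lists of lysosomal function. Each point is a gene, the red bar the median of its list and the dotted lines 4-fold. Most points of the cathepsin, hydrolase, sorting and membrane lists lie within 4-fold. In PC3 the cathepsin members reach from -6.17, which is CTSS at 0 counts, to 4.11. The lowest hydrolase value there is -9.31 and the lowest vacuolar ATPase value -8.54.

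Genes beside the cathepsins on the chromosome were compared in the same way. On chromosome 8, FDFT1, which encodes squalene synthase, and NEIL2, a DNA glycosylase gene, lie on the same side of CTSB. Their levels in PC3 were 6.45-fold lower (5.92 to 7.04) and 6.71-fold lower (5.55 to 8.17) than in LNCAP, whereas CTSB itself did not differ beyond counting error. On chromosome 9, DAPK1, a kinase gene next to CTSL, had 849 counts in LNCAP, 0 counts in PC3 and 626 counts in DU145, and was at least 277-fold lower in PC3, where CTSL was 2.49-fold lower. Beside CTSC, RAB38 had 0 counts in LNCAP, 2 counts in PC3 and 289 counts in DU145, which is not the order of CTSC. CTSK and CTSS lie next to each other on chromosome 1, and both had their lowest level in PC3, while the highest level was in DU145 for CTSK and in LNCAP for CTSS.

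**Figure D5:**
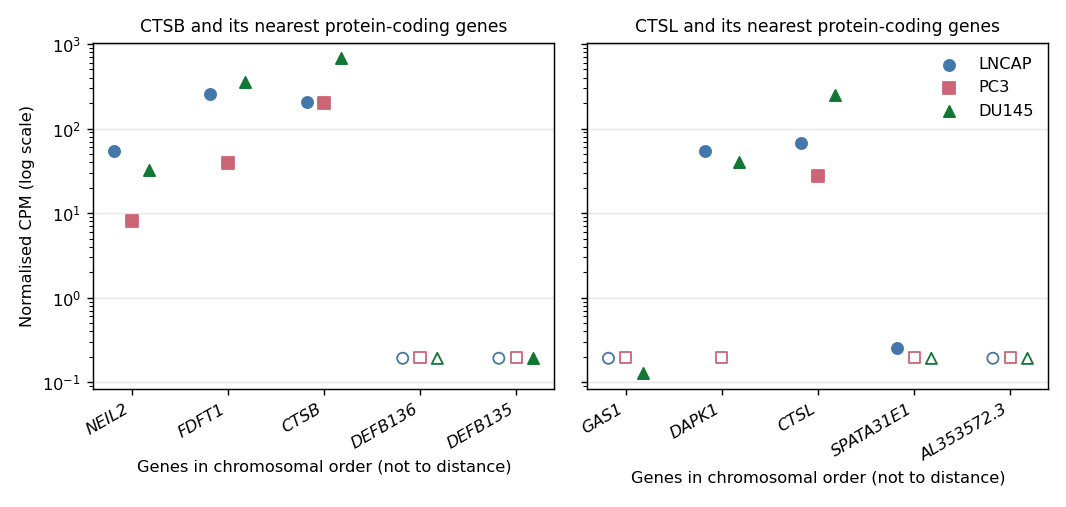
Normalised CPM on a log axis for CTSB on the left and CTSL on the right with the nearest protein-coding genes on either side, in chromosomal order and not to distance. Open symbols are counts of 0, drawn at the limit of 3 counts, and a filled symbol below them is a library with fewer than 3 counts. FDFT1 and NEIL2 are lowest in PC3 while CTSB is alike in LNCAP and PC3, and DAPK1 is at 0 in PC3.

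CTSS, CTSK and CTSC are also expressed by macrophages and osteoclasts, so markers of other cell types were read in the same libraries. The 11 macrophage and leukocyte markers summed to 6.91 normalised CPM in LNCAP, 1.57 in PC3 and 18.2 in DU145, with AIF1 and TYROBP at 0 in all 3 libraries. ITGAM and CD74 in LNCAP, none in PC3, and CD14 and CD74 in DU145 reached 1 CPM. CTSK, at 5.88, 2.36 and 13.7 normalised CPM, had the same order over the 3 libraries as this sum. CTSC was highest in PC3, where the sum was lowest, and CTSS was higher in LNCAP than in PC3, as the sum was, but lower in DU145 than in LNCAP. Most of the DU145 sum was CD74, the invariant chain gene, with 254 counts there against 19 in LNCAP and 7 in PC3, and most of the LNCAP sum was ITGAM, with 55, 0 and 4 counts in LNCAP, PC3 and DU145. The 5 osteoclast markers summed to 9.91 normalised CPM in LNCAP, 108 in PC3 and 12.9 in DU145, most of it TNFRSF11A, the RANK receptor gene, with 134, 1550 and 141 counts, and DCSTAMP was at 0 throughout. OSCAR had 5, 93 and 10 counts, ACP5 16, 15 and 7, and CALCR, the calcitonin receptor gene, 0, 0 and 44. CTSK was lowest in PC3, where the sum, TNFRSF11A and OSCAR were highest, and highest in DU145, where CALCR was highest. The 9 fibroblast and endothelial markers summed to 45.1, 68.3 and 11.1 normalised CPM, with COL1A1 at 518, 488 and 148 counts, COL3A1 at 31, 239 and 2, PECAM1 at 0, 307 and 12 and VWF at 144, 1 and 0, and CTSK was highest in the library with the lowest sum. All 3 libraries were made from cultures of established lines, and whether the lines themselves express these markers was not tested. The part of other cell types in these values was not tested beyond these markers. No source of a cathepsin is read from an order it shares with a sum.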

How the data were processed

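Per the labels' protocols, each library was made from 4 ug of total RNA, prepared with TRIzol and then a column kit. Several media are listed without saying which line received which. The authors deposited raw read counts per gene and FPKM per gene for each library. Dividing a deposited count by the gene length in the file and by a library-wide constant gave the deposited FPKM exactly, so both hold the same reads. The submitters' processing notes name, without roles, TopHat2 2.0.9, Bowtie2 2.0.6, Cuffdiff 2.1.1 and Cufflinks 2.1.1. Not given in the sources used here are the genome build, the counting program and whether it used strand. The 58735 gene identifiers, and the listed lengths and coordinates of the 10 genes, matched GENCODE release 29 on GRCh38, which coordinates follow.

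Lines were grouped by the cell line label. Counts were scaled with TMM (factors 1.016, 0.998 and 0.987 for LNCAP, PC3 and DU145) in edgeR 4.0.16, with DESeq2 1.42.0 and limma 3.58.1 as alternatives in R 4.3.3. Ratios and exact conditional binomial (Clopper-Pearson) 95% counting intervals used Python 3.11.15 and scipy 1.17.1. Reads carry no molecular identifiers, so intervals cover counting error only. A call needs a log2 ratio of at least 2 in size with 0.5 counts added. Where 1 library had 0 counts, 3 counts were put in its place and the fold is a bound. The class test was edgeR's quasi-likelihood test with Benjamini-Hochberg adjustment over 18025 genes. Both procedures were also run on simulated data. No outcome of those runs is given here, so nothing about the 3 libraries is read from them.

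The 10 genes and all lists were chosen with earlier results of these data known. Named from each list were up to 3 called genes with the largest log2 ratio and those highest in FPKM, then neighbours called beside a member (those compared at 1 CPM or more), and the protein-coding gene of nearest pattern to each called member. Marker lists are given mainly by their sums. Other names, such as GLB1, GALNS, ATP6V0B, ATP6V0E2, TDRD7, MORF4L1 and the markers, were added for their roles or after their values were seen. Alternatives were total-count and DESeq2 scaling, deposited FPKM with 0.1 or 1 added, 5 counts added, other filters, a 2-fold call and principal transcript lengths.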

Additional observations from a re-analysis of the deposited data

Results flagged for a closer look

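Relative to LNCAP, 3 cathepsin genes differed in opposite directions in the castration-resistant lines, lower in PC3 and higher in DU145. With 1 library per line, the difference between the 2 effects was not tested. The log2 ratio of CTSL was -1.32 in PC3 and 1.89 in DU145. That of CTSK was -1.31 in PC3 and 1.21 in DU145, and that of CTSV was -0.48 and 0.78. In each case the 95% counting interval of both ratios left out a ratio of 1, and none of these ratios to LNCAP reached 4-fold.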

How the results depend on the processing

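No paired analysis was possible because each line has 1 library, so the groups compared share fewer than 2 replicate numbers. With FPKM plus 1, the cathepsin genes called lower went from 2 to 1 in PC3 against LNCAP (CTSS lost), from 1 to 0 in DU145 against LNCAP (CTSH at a log2 ratio of -1.91) and from 3 to 1 in PC3 against DU145 (CTSK and CTSS lost). The 5 CPM filter removed CTSS, which left 1 called lower in PC3 against LNCAP among 9. A 2-fold call gave 4 lower in PC3 against LNCAP, 5 higher and 2 lower in DU145 against LNCAP, and 5 lower in PC3 against DU145. Of all genes compared, 46.2%, 46.0% and 37.8% were called at 2-fold, in either direction, in these 3 pairs. With FPKM plus 1 these shares were 9.17%, 8.61% and 5.53%. The 5 CPM filter left 22.0% of genes called in PC3 against LNCAP. Nothing particular to the cathepsin genes is read from these counts. CTSS in PC3 against DU145 also lost its call with FPKM plus 0.1 and with 5 counts added. DESeq2 called 3 cathepsin genes in the class comparison where edgeR called 0. No ratio of a cathepsin gene between 2 lines changed direction by scaling, filter or added counts. Without DU145 the class log2 value turned from 1.04 to -1.32 for CTSL and from 0.28 to -0.48 for CTSV. That of CTSK turned from 0.44 to -1.31, and was -0.04 with limma-voom on all 3 libraries. That of CTSB went from 1.09 to -0.04, which is no difference beyond counting error. That of CTSS went from -2.82 to -6.17. Fits without PC3 or DU145 have no residual degree of freedom and give values with no test. With principal transcript lengths, the share of the 3 highest genes moved to 60.7% in LNCAP and 64.8% in DU145. Low counts limit CTSS and CTSK most.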

Other observations

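For each cathepsin gene called in any pair, the protein-coding gene with the nearest pattern over the 3 libraries was found among 11110 genes that reached 10 CPM in any library. Likeness was the Euclidean distance between log2 CPM values centred over the libraries, and with 3 values per gene many genes lie close, so the pairs are a description. KLF6, a zinc finger transcription factor gene, was nearest to CTSA at a distance of 0.047, with 18.2 normalised CPM in LNCAP, 87.5 in PC3 and 110 in DU145, and 135 genes lay within 0.5. GSDME, a pore-forming gasdermin gene, was nearest to CTSC at 0.050, with 1.66, 28.9 and 17.5 normalised CPM, and 39 genes lay within 0.5. SNRPN, an imprinted gene for a spliceosomal protein, was nearest to CTSH at 0.025, with 25.3, 5.10 and 5.74 normalised CPM. MED12L was nearest to CTSL at 0.072, with 5.12, 1.90 and 18.6 normalised CPM. NETO2 was nearest to CTSK at 0.105, with 58.1, 25.4 and 148 normalised CPM. RAB11FIP4 was nearest to CTSS at 0.115, with 8 genes within 0.5, a distance that depends on the counts added to the 0 of CTSS in PC3.

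Near other cathepsin genes, TDRD7 near CTSV had 560 counts in DU145, 191 in LNCAP and 148 in PC3, in the same order as CTSV, and was not called. CCDC180, between CTSV and TDRD7, had 37 counts in DU145, 7 in LNCAP and 4 in PC3, and was 5.27-fold higher in DU145 than in LNCAP (2.32 to 14.02) and 9.02-fold lower in PC3 than in DU145 (3.24 to 34.9). IFITM10 and SYT8 beside CTSD had 63 and 33 counts in DU145, against 6 and 0 in both other lines, while CTSD was alike in LNCAP and DU145. MORF4L1 beside CTSH had 2431, 3227 and 3381 counts, lowest in LNCAP where CTSH was highest.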
